A study of Mus musculus with 4 samples.

Results

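Cytotoxic lymphocytes store granzymes in granules together with cathepsins that process them, and hold inhibitors of these proteases in the granules and in the cytosol. Accessible chromatin was examined at 7 genes of this system in mouse natural killer (NK) cells: the cathepsins Ctsc, Ctsd and Ctsw, the cystatin Cst7, and the clade B serpins Serpinb9, Serpinb6a and Serpinb6b. They were taken by gene name from the GENCODE annotation, and all 7 were found among the 21755 genes annotated as protein-coding on the autosomes and X. DNase-seq, which maps the positions where the nuclease DNase I cuts chromatin, had been run on primary NK cells of adult female B6CASTF1/J mice (an F1 cross of C57BL/6J and CAST mice) aged 2 months. There are 4 libraries, labelled as biological replicates 1 to 4, and they form a single untreated group, which leaves no contrast between conditions. All 4 carry the same donor identifier in the labels, and no label says from which organ the cells came or how they were sorted. An SD over the 4 is thus a spread among libraries that may be technical.

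Cathepsins are proteases of lysosomes and related granules. Ctsc encodes dipeptidyl peptidase I, which trims the N-terminal dipeptide from pro-granzymes and so activates them. Cst7 encodes cystatin F, an inhibitor of cathepsins that itself enters lysosomes and granules, with cathepsin C among its targets. The serpins of clade B stay in the cytosol and nucleus and trap proteases that leak from granules: Serpinb9 inhibits granzyme B, Serpinb6a is the mouse counterpart of human SERPINB6, an inhibitor of cathepsin G, and its paralog Serpinb6b has been described as an inhibitor of granzyme A.

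Each library comes with a list of DNase peaks, the authors' signal value for each peak, the bases whose cut rate had a false discovery rate (FDR) below 0.05, and footprints, which are short stretches of reduced cutting inside accessible DNA. A gene was called open in a library when a peak lay within 1 kb of any of its annotated transcript starts, and its start signal is the largest value among those peaks. Peaks of the 4 libraries that touched or overlapped were merged into regions, and a region with a peak in at least 3 of the 4 libraries is called recurrent. The locus of a gene is the gene body with 25 kb on either side. None of the sources at hand states the unit of the signal or the number of reads, so levels of different libraries are set side by side with that limit.

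Replicate 3 had the most peaks, footprints and low-FDR bases (69168 peaks, against 36285 to 47496 in the other libraries), and the cell type markers set it apart as well. Over all protein-coding genes, 54.9% were open in at least 3 libraries. Of 10 NK cell markers 5 were, near that share, and their summed start signal was 54.3 in replicate 3 and 19.4 to 21.4 in replicates 1, 2 and 4. Of 10 B cell markers, 7 were open in at least 3 libraries, with a summed signal of 7.87 in replicate 3 and 9.30 to 15.2 in the others. The sum over 9 T cell markers, 5 of them open in at least 3 libraries (again near the share of all genes), was 17.3 in replicate 3 and 8.61 to 10.6 in the others. Cd3d was the highest of these markers, with 4.90, 5.80, 11.2 and 5.87 in replicates 1 to 4, while Cd3e, Cd4, Cd8a and Cd8b1 were at 0. Of 12 myeloid and granulocyte markers only Itgam and Cd68 were open, with a sum of 5.27 in replicate 3 and 2.27 to 3.23 in the others, and the other 10, Lyz2, Csf1r and Mpo among them, were at 0. In bulk libraries like these, a larger share of NK cells and more cutting per cell cannot be told apart. The part of cell makeup and depth in the differences between replicate 3 and the other libraries below was not tested. Start signals are given per library, and for some genes also as a mean without replicate 3.

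The DNA that was accessible at these genes is shown first, because some of the footprints and motif matches described below lie in it. Sequences were read from RefSeq's GRCm38.p6 (mm10, the C57BL/6J reference) on the strand of the gene, and capitals mark bases inside a footprint in at least 3 of the 4 libraries. Where annotated untranslated sequence covered much of a region, as at Ctsd, only a short window is shown. The windows are chr7:88277921-88278114 on the + strand for Ctsc, chr7:142387928-142387957 on the - strand for Ctsd, chr2:150570161-150570444 on the + strand for Cst7, chr13:33004666-33004840 on the + strand for Serpinb9, chr13:34002784-34002892 on the - strand for Serpinb6a and chr13:32966131-32966430 on the + strand for Serpinb6b. Each belongs to the region with the highest mean signal at a start of its gene.
Ctsc: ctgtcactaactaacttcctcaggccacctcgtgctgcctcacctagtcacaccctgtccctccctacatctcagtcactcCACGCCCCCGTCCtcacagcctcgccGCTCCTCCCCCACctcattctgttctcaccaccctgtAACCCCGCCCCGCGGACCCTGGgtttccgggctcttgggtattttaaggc
Ctsd: ggttcgGGTCGCCCCGCCCCTCGCCcgcgt
Cst7: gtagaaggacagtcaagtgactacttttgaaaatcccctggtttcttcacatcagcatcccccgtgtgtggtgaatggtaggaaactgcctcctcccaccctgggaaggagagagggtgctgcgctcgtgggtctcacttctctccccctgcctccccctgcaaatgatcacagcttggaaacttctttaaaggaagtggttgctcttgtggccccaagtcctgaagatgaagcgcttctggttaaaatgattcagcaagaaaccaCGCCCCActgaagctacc
Serpinb9: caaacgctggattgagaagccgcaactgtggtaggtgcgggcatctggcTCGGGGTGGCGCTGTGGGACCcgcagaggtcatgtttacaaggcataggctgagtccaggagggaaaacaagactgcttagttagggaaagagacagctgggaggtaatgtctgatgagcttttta
Serpinb6a: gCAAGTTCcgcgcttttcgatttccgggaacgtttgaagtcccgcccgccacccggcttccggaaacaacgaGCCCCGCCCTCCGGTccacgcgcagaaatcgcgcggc
Serpinb6b: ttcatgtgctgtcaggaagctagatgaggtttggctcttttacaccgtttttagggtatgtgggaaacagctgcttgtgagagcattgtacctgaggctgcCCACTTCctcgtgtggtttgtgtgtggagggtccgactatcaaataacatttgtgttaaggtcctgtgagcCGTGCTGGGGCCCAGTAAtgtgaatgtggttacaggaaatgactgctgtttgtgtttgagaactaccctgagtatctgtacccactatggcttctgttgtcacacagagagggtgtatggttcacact

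A pair of regions far from any start is shown because they had the highest mean signal away from starts at these loci. They are chr7:142396641-142396940 on the - strand, upstream of Ctsd, and chr13:32993391-32993690 on the + strand, between Serpinb6b and Serpinb9.
Ctsd upstream: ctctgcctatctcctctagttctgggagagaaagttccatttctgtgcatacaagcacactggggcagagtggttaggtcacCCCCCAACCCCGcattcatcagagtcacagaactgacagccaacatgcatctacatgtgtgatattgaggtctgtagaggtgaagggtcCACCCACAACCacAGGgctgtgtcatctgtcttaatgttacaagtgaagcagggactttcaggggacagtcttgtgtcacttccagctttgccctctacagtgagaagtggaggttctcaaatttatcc
Serpinb6b to Serpinb9: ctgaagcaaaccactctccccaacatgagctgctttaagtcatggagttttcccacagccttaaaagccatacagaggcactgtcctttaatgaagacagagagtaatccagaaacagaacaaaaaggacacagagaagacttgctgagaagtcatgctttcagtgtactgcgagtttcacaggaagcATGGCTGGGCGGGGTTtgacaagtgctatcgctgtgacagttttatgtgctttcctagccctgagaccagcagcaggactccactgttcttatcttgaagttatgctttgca

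All 7 genes were open in all 4 libraries. The same was true of 51.9% of protein-coding genes, and 54.9% were open in at least 3 libraries, so an open start alone does not set these genes apart. Their levels differed more. The median mean start signal of genes open in at least 3 libraries was 4.49, and Ctsc, Serpinb6a and Ctsd lay above it while Serpinb6b, Serpinb9, Cst7 and Ctsw lay below it. Ctsd was nearest to it, at 4.62 ± 1.84. The distances of Ctsd, Serpinb6a and Serpinb6b from this median were smaller than their SDs over the 4 libraries. Among all protein-coding genes, closed ones included, the mean start signals ran from the 78.0th percentile at Ctsc to the 55.7th at Ctsw.

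**Figure D1:**
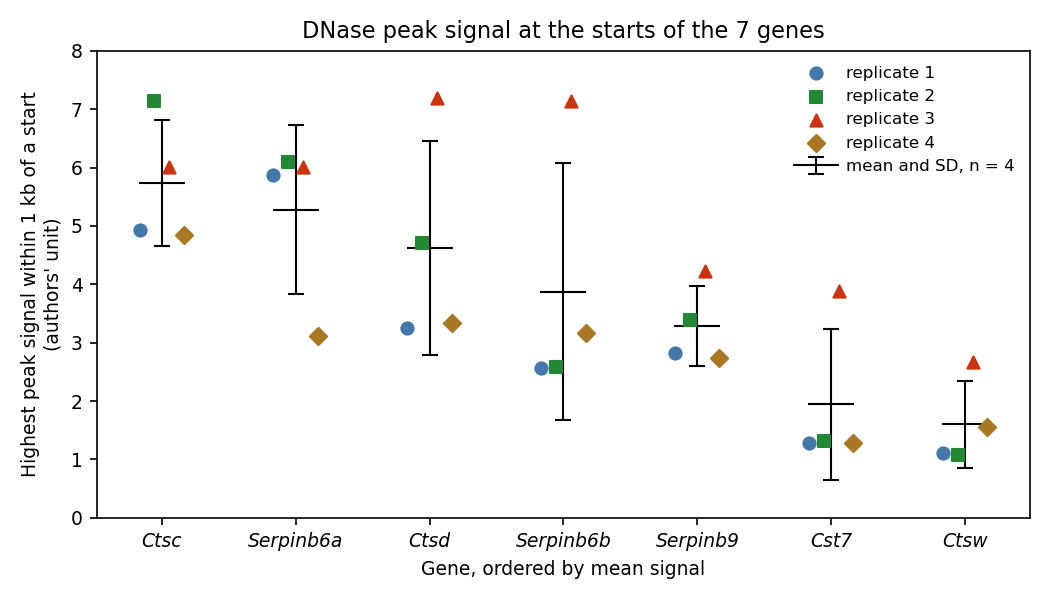
DNase start signal of the 7 genes, ordered by mean. The vertical axis gives the start signal as defined above, in the authors' unit, with 1 point per library and a bar for the mean and SD over 4 libraries. Replicate 3 (triangles) is the highest library at Ctsd, Serpinb6b, Serpinb9, Cst7 and Ctsw, and replicate 2 (squares) at Ctsc and Serpinb6a.

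Ctsc had the highest mean start signal of the 7, 5.73 ± 1.08 (SD, n = 4). Its values were 4.92, 7.14, 6.01 and 4.84 in replicates 1 to 4, so replicate 2 was highest and replicate 3 lay inside the range of the others. Serpinb6a followed with 5.88, 6.10, 6.01 and 3.11, a mean of 5.28 ± 1.44, and replicate 4 stood well below the other libraries. Ctsc exceeded Serpinb6a in 2 of 4 libraries, with a mean difference of 0.452 ± 1.18, and Serpinb6a exceeded Ctsd in 2 of 4, by 0.652 ± 1.69, so the first 3 places were not separated beyond the spread between libraries.

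Ctsd, the aspartic protease of lysosomes, had 3.26, 4.71, 7.19 and 3.33, a mean of 4.62 ± 1.84, with replicate 3 highest. It lay above Serpinb6b in 4 of 4 libraries, although the mean difference of 0.755 ± 0.954 was smaller than its SD. The Serpinb6b values were 2.57, 2.59, 7.14 and 3.17, a mean of 3.87 ± 2.20, which falls to 2.78 ± 0.341 over the other 3 libraries once replicate 3 is left out. Serpinb9, at 2.82, 3.38, 4.23 and 2.73, had a mean of 3.29 ± 0.689 and the smallest SD of the 7. Serpinb6b exceeded Serpinb9 in 2 of 4 libraries, by 0.579 ± 1.64, and without replicate 3 their order was reversed.

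Cst7 and Ctsw had the lowest start signals. For Cst7 the values were 1.28, 1.32, 3.89 and 1.28, a mean of 1.94 ± 1.30, so replicate 3 stood alone, and the other 3 libraries had an SD of 0.0228 around 1.29. Ctsw, a papain-type cathepsin known mainly from NK cells and cytotoxic T cells, had 1.12, 1.08, 2.67 and 1.56, a mean of 1.61 ± 0.745. Serpinb9 lay above Cst7 in 4 of 4 libraries by 1.35 ± 0.725, and Cst7 above Ctsw in 3 of 4 by 0.335 ± 0.628. With 4 libraries an exact sign-flip permutation test between 2 genes cannot reach 0.05, so none was run.

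The Ctsc locus was nearly bare apart from its start. It runs over 82.8 kb and held 2 recurrent regions, both near the 5' end. The stronger, chr7:88277921-88278200, spans the starts of Ctsc-201 to Ctsc-204. The weaker, chr7:88277141-88277640, lay 445 bp upstream, had signals of 0.541, 0.705 and 0.399 in replicates 1 to 3, and had no peak in replicate 4. Ctsc-205 starts inside the gene at 88296852 and had no peak within 1 kb in any library. No other region, recurrent or not, was found in the gene body or its flanks.

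At Ctsd, accessible regions surrounded the start on both sides. The locus held 14 merged regions, 7 of them recurrent, against a median of 2 recurrent regions over the loci of all protein-coding genes. With 11.3 recurrent regions per 100 kb it lay at the 93.1st percentile of those loci. Replicate 3 had a peak in all 14 regions, against 6, 7 and 8 regions in replicates 1, 2 and 4. Among the recurrent regions, chr7:142381241-142381520 lies within 1 kb of a start of another gene, Gm49369. The start region, chr7:142387821-142388040, overlaps the 5' untranslated region. The strongest region away from the starts, chr7:142396641-142396940, is intergenic, 8.75 kb upstream of the 5' end, and had 1.56, 2.56, 6.15 and 2.19, a mean of 3.12 ± 2.07. The next, chr7:142379201-142379500, lies in an intron 8.69 kb downstream of the 5' end and had 2.32, 2.56, 4.64 and 2.37, a mean of 2.97 ± 1.12. Another, chr7:142353961-142354260, lies in an intron of the neighbour Ifitm10 and had 1.60, 1.87, 4.91 and 2.02, a mean of 2.60 ± 1.55. In each of these, replicate 3 was above the other libraries, and the 7 recurrent regions had replicate 3 signals 1.91 to 3.68 times the mean of the others.

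Ctsw is a short gene, 3465 bp, in gene-rich surroundings. Its locus held 11 merged regions, 10 of them in all 4 libraries, which is the 96.9th percentile of recurrent regions per locus. Of these 10, however, 8 lay within 1 kb of a start of another protein-coding gene (Fosl1, Ccdc85b, Fibp, Mus81 or Cfl1), and only 2 near starts of Ctsw itself. The strongest of the neighbours' regions were those at Mus81 (chr19:5487921-5488520, 9.71 ± 2.80, and chr19:5489061-5489360, 6.67 ± 1.95) and at Cfl1 (chr19:5491281-5491700, 5.89 ± 1.77). The region that spans the Ctsw start, chr19:5468421-5468659, had 0.846, 0.977, 2.23 and 1.56, a mean of 1.40 ± 0.631. An intronic region of similar strength, chr19:5467081-5467543, 629 bp from the nearest Ctsw start, had 1.12, 1.08, 2.67 and 0.971, a mean of 1.46 ± 0.812. The intronic region was the stronger of this pair in replicates 1, 2 and 3 and the start region in replicate 4.

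**Figure D2:**
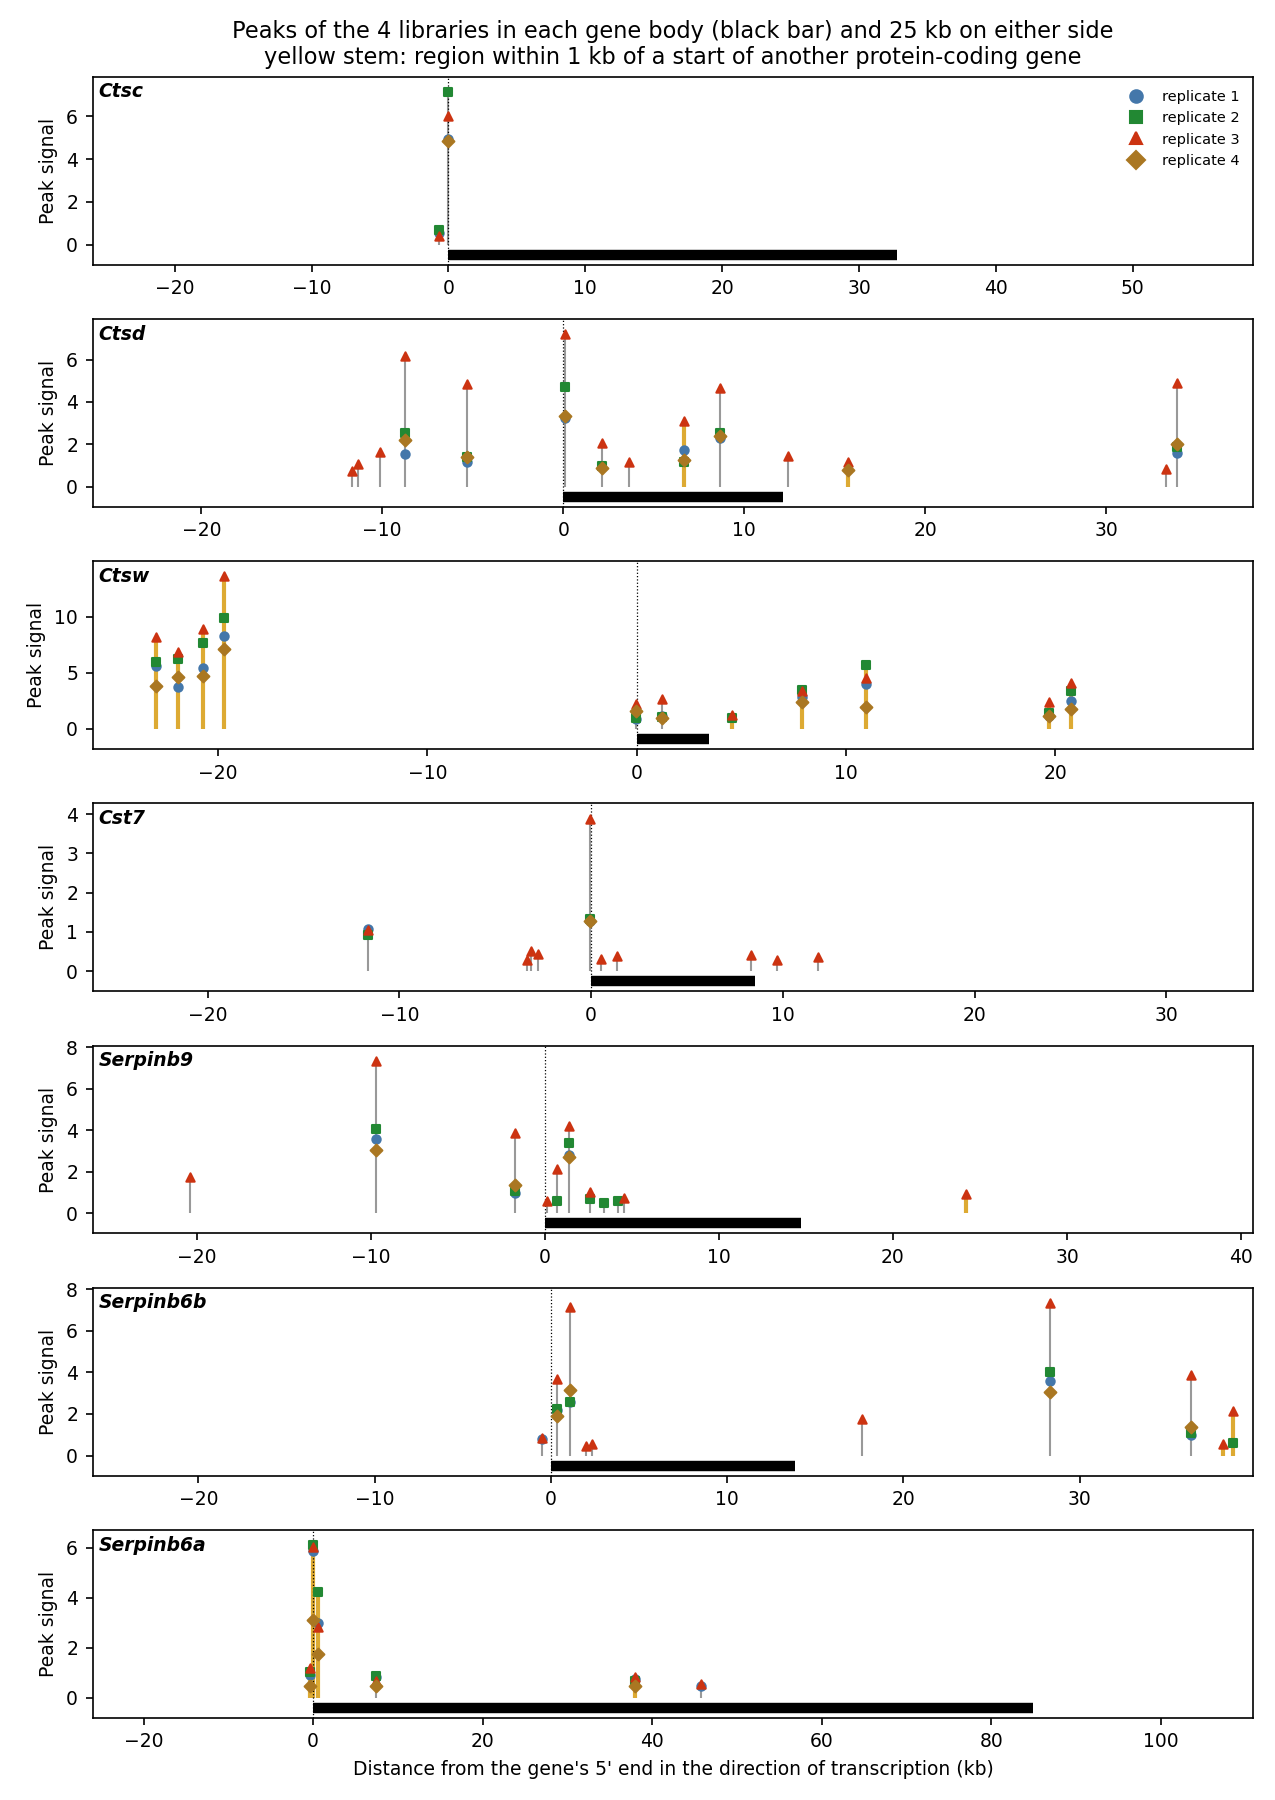
Peaks in the 7 loci. The horizontal axis is the distance from the 5' end of the gene in kb, in the direction of transcription, the black bar is the gene body, and each point is the signal of 1 library at a merged region. Yellow stems mark regions within 1 kb of a start of another protein-coding gene. Ctsc has peaks only near its start, 8 of 10 recurrent regions at Ctsw are at other genes, and 8 of the 10 Cst7 regions have a point from replicate 3 alone.

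Cst7 has a single annotated start, at chr2:150570415, and the region over it, chr2:150570161-150570520, was the only one of its locus found in all 4 libraries. One other region was recurrent, chr2:150558661-150558900, an intergenic region 11.6 kb upstream with 1.07, 0.916 and 1.05 in replicates 1 to 3 and no peak in replicate 4. The other 8 of 10 merged regions were called in replicate 3 alone, with signals of 0.274 to 0.523, upstream, inside and downstream of the gene. Replicates 1, 2 and 4 therefore had 2, 2 and 1 regions at this locus and replicate 3 had 10.

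Serpinb9 and Serpinb6b lie next to each other on chromosome 13 in the same direction, and between them lay the region with the highest mean signal of either locus. This intergenic region, chr13:32993301-32993780, is 9.71 kb upstream of the annotated 5' end of Serpinb9 and 28.3 kb downstream of that of Serpinb6b. Its signals were 3.58, 4.04, 7.34 and 3.07, a mean of 4.51 ± 1.93, above the Serpinb9 start in 4 of 4 libraries. A weaker intergenic region, chr13:33001381-33001700, 1.71 kb upstream of the Serpinb9 5' end, had 0.975, 1.08, 3.85 and 1.38, a mean of 1.82 ± 1.37. Replicate 3 was the highest library at both.

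Serpinb9 was open at its downstream start and not regularly at its annotated 5' end. Serpinb9-201 starts at 33004541, inside the region chr13:33004401-33004840, whose signals are the start signals given above. The other annotated transcript starts further upstream at 33003250, and within 1 kb of it only replicates 2 and 3 had a peak, with 0.614 and 2.13. A count restricted to the annotated 5' end would thus give Serpinb9 a mean of 0.687 in place of 3.29. Both transcripts share an exon that begins close to the open start.

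At Serpinb6b the highest signal within 1 kb of a start was not on the start itself. The region spanning the annotated starts at 32965209, 32965444 and 32965503, chr13:32965201-32965860, had 2.21, 2.24, 3.67 and 1.92, a mean of 2.51 ± 0.787. The intronic region chr13:32966121-32966440, 618 bp from the nearest start, had the values given above for the gene and exceeded the start in 4 of 4 libraries. Serpinb6b-204, which starts at 32971498, had no peak in any library. Of the 10 merged regions of the locus 4 were recurrent, and replicate 3 had all 10 against 4 or 5 in the other libraries.

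Serpinb6a has 15 distinct annotated starts in 2 groups, and the same group was open in all 4 libraries. The 5 starts from 34002740 to 34002794 lay in the region chr13:34002701-34002940, present in all 4 libraries. None of the 10 starts from 33922059 to 33936198 had a peak within 1 kb in any library. The open starts sit beside that of Ripk1, a kinase of cell death and inflammatory signalling transcribed in the opposite direction, so the signal there cannot be assigned to Serpinb6a alone. A second region by these starts, chr13:34002041-34002480, had a mean of 2.96 ± 1.02 and the weakest, chr13:34003001-34003400, 0.902 ± 0.298. Away from the starts the locus held only weak recurrent regions, chr13:33995321-33995516 in an intron, with 0.708 ± 0.183, and chr13:33964541-33965040 at Nqo2, with 0.685 ± 0.159. Serpin genes of this chromosome have close copies, and no source at hand says how reads shared between copies were treated, so levels at the 3 serpins are less certain than at the other genes.

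Over the 7 loci there were 59 distinct merged regions, of which 31 were recurrent and 28 were found in all 4 libraries. Single-library regions numbered 22, and 20 of them came from replicate 3. Neighbouring loci overlap between Serpinb6b and Serpinb9, and regions that belong to both are counted once here.

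The FDR of the cut rate per base showed where accessibility was centred. Its -log10 value, which is larger where cutting stands out more from the background, peaked at positions -83 to -77 from the Ctsc start at 88278134 (negative is upstream, in bp) in the 4 libraries, with heights of 60.3, 69.3, 79.5 and 65.3. At Ctsd the peak lay at -67 to -56 from the Ctsd-201 start, with heights of 10.8, 20.2, 34.1 and 18.05. Serpinb6a peaked at -47 to -31 from the Serpinb6a start at 34002794 with 67.3, 83.7, 115 and 36.4, replicate 4 again being the lowest. Cst7 peaked upstream of its start with 4.95, 4.97, 56.7 and 9.52, and replicate 3 was far above the others. These heights depend on the depth of a library, which is unknown here, as well as on its cutting.

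The remaining profiles had their maxima away from the start chosen. At Serpinb9 the maximum lay 126 to 176 bp downstream of the Serpinb9-201 start, with 9.42, 25.9, 29.3 and 11.9. At Serpinb6b it lay 828 to 848 bp downstream of the Serpinb6b-201 start in replicates 2, 3 and 4, over the intronic region, and 282 bp downstream in replicate 1. At Ctsw it lay 1062 to 1170 bp downstream, over the intronic region, in replicates 1, 2 and 3 and at -37 in replicate 4. Low-FDR bases covered every base within 200 bp of the start in all 4 libraries at Ctsc and Serpinb6a, and 60.04% ± 32.1 (SD, n = 4) of them at Ctsw.

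**Figure D3:**
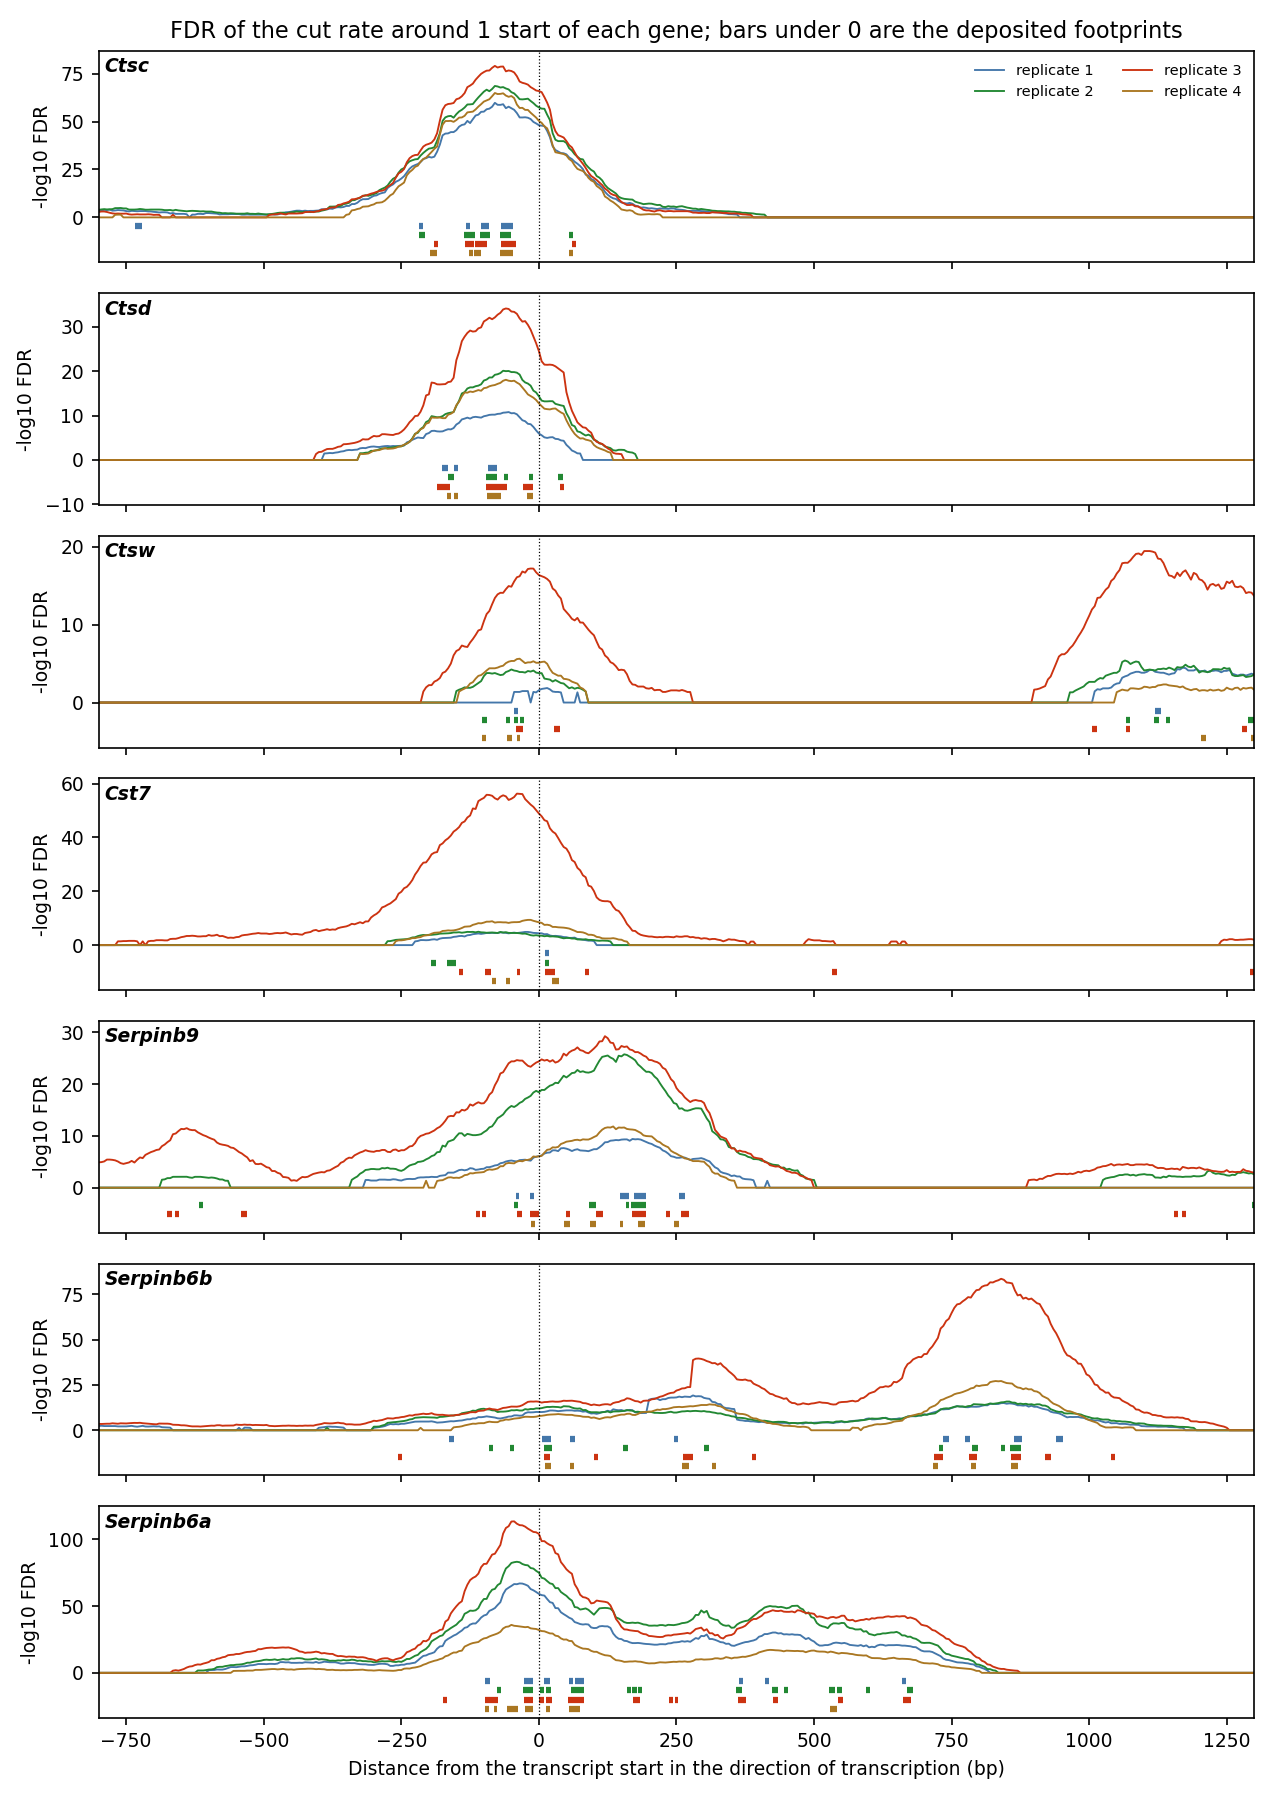
FDR of the cut rate around 1 transcript start of each gene. The horizontal axis is the distance from the start in bp, in the direction of transcription, the vertical axis is -log10 of the deposited FDR (0 where no FDR below 0.05 is listed), lines are the 4 libraries and bars under 0 are the deposited footprints. At Cst7 the replicate 3 line reaches 56.7 and the others 4.95 to 9.52, while at Ctsc the 4 maxima lie between 60.3 and 79.5.

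Footprints recurred at the same bases in several libraries. In its region of highest signal, Serpinb6a had 56 bases inside a footprint in at least 3 libraries, in 4 stretches, and Ctsc had 49 bases in 4 stretches. Ctsd had 30 such bases, Serpinb9 29, Serpinb6b 25 and Cst7 7 in a single stretch. At Ctsc the number of footprints from 800 bp upstream to 1300 bp downstream of the start was 5 in each library. At Cst7 it was 1, 3, 7 and 3 in replicates 1 to 4.

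The accessible sequences differed in base composition. Regions longer than 300 bases were cut to the 300 with the most bases inside a footprint in at least 3 libraries. Over at most 300 bases of the region of highest signal, GC content was 68.2% at Ctsd, 62.9% at Serpinb6a and 61.4% at Ctsc, with 25, 27 and 16 CpG dinucleotides. Serpinb9 (57.3%, 9 CpG) and Cst7 (55.3%, 6 CpG) lay lower, and the intronic Serpinb6b region had 47.7% and 4 CpG. The region over the Serpinb6b starts had 58.7% and 8 CpG. The 3 genes with the highest CpG numbers were also the 3 with the highest mean start signal, a description of 6 genes only.

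Fixed motif letters were searched on both strands in the same stretches of at most 300 bases. At Ctsc, Ctsd, Cst7, Serpinb9 and Serpinb6a these stretches hold sequence that is not printed above. The printed windows of Cst7 and Serpinb9 also hold bases that were not searched. The SP motif, GGGCGGGG, the kind of GC box bound by SP and KLF factors, matched at Ctsc, Ctsd, Serpinb6a and Serpinb9. At the first 3 the whole match lay inside bases that were in a footprint in at least 3 libraries, seen on the printed strand as CCCCGCCC within the capitals, and at Serpinb9 it lay outside them. The same motif lay wholly inside the single recurrent footprint of the intergenic region between Serpinb6b and Serpinb9, at chr13:32993585-32993592. It matched in 17.6% of 32851 RefSeq promoters of 300 bp, so a match is common. Of 36595 windows of 300 bp centred on recurrent regions, 14.9% held a match. The stretches searched at Ctsc, Ctsd and Serpinb6a were shorter, 280, 220 and 240 bp.

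Other matches were outside the recurrent footprints or only touched them. Ctsd held TCACGTGA, the E-box recognised by TFEB and related factors that regulate lysosomal genes, at chr7:142387919-142387926. It lay close to the recurrent footprint with the SP match and outside it. In replicate 3 a footprint from -95 to -58 of the Ctsd-201 start covered the whole E-box. In replicate 2 a footprint from -63 to -56 overlapped part of it. The E-box letters were found in 0.974% of promoters. The ETS motif AGGAAGT (9.35% of promoters) matched at Ctsc, Cst7 and Serpinb6b, and at Serpinb6b it touched the first recurrent footprint. The RUNX motif TGTGGTT (5.27% of promoters, 9.52% of windows at recurrent regions) matched 2 times in the intronic Serpinb6b region, outside footprints, and touched a footprint in the region upstream of Ctsd. At Cst7 the AP-1 motif TGANTCA (7.81% of promoters) matched at chr2:150570409-150570415. The IRF motif (3.44% of promoters) matched at Serpinb6a and Serpinb9, and at Serpinb9 it touched a recurrent footprint. At Serpinb6a the IRF match overlapped a match to the STAT motif TTCNNNGAA (8.30% of promoters). Another STAT match at Serpinb6a, chr13:34002766-34002774, touched a recurrent footprint. The letters AGGTGTGA (T-box, 1.28% of promoters), TGACGTCA (CRE, 1.79%), those of the CCAAT box (37.4%), AAGATGGC (YY1, 2.75%) and CCGGAAGT (another ETS form, 3.89%) did not occur in these stretches of the 6 genes. The region over the Serpinb6b starts held IRF matches at chr13:32965371-32965380 and chr13:32965382-32965391. It also held an AGGAAGT match at chr13:32965431-32965437, and the weaker Ctsc region held the same letters at chr7:88277391-88277397. These matches lay outside recurrent footprints. Away from starts, the T-box letters matched at chr13:33995353-33995360 in the Serpinb6a intron and the YY1 letters at chr2:150558737-150558744 upstream of Cst7, both outside recurrent footprints. A match is a description of letters and not evidence of binding.

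Replicate 3 was not higher at all 7 genes alike. Over the 11287 protein-coding genes open in all 4 libraries, the ratio of the replicate 3 signal to the mean of the other libraries had a median of 1.42, with 1.10 and 1.77 at the 10th and 90th percentiles. Cst7 had a ratio of 3.01, above 99.8% of those genes, and Serpinb6b 2.57, above 99.2%. The Serpinb6b value belongs to the intronic region 618 bp from the nearest start, and the region over the starts had 1.73, within the 10th to 90th percentiles. Ctsw had 2.14 (97.4%) and Ctsd 1.91 (94.3%). The Ctsw value takes the intronic region in replicates 1, 2 and 3 and the start region in replicate 4. Taken alone, its start region had 1.98 and its intronic region 2.54. Serpinb9 was at the middle, with 1.42 (50.2%), and Serpinb6a and Ctsc lay low, with 1.20 (17.4%) and 1.07 (8.27%). Dividing each signal by the median peak signal of its library raised the median of all these genes to 1.65 and the ratios to 3.49 at Cst7 and 1.24 at Ctsc, a nearly common factor that by construction leaves the order of genes much as it was.

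Granule effector genes lay on the same side as Cst7 and the intronic Serpinb6b region, while Ctsc, at 1.07, did not. The ratio was 2.02 to 3.40 at the 4 granule effector genes open in all libraries (Prf1, Gzmb, Srgn and Nkg7) and 2.03 to 2.76 at the 5 NK markers open in all libraries, of which Prf1 and Nkg7 are in both lists. At 5 B cell markers it was 0.263 to 1.46, at 3 T cell markers 1.45 to 2.03, and at the 2 myeloid markers 1.68 and 2.45. Cathepsins other than the 3 described had a median of 1.40 (11 genes) and genes of lysosomal sorting 1.37 (12 genes), close to that of all genes. Over replicates 1, 2 and 4, in each of which all 7 genes had a start peak, Cst7 had a mean of 1.29 and Ctsw 1.25.

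**Figure D4:**
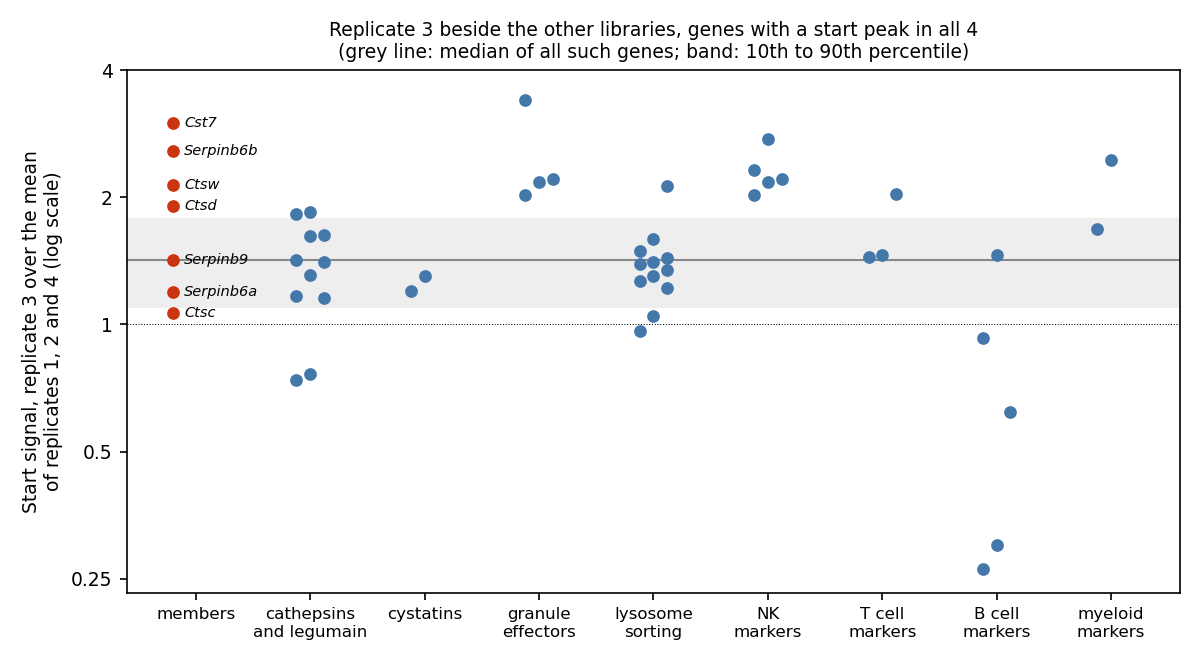
Start signal in replicate 3 divided by the mean of replicates 1, 2 and 4, on a log axis, for genes with a start peak in all 4 libraries. Red points are the 7 genes, blue points are genes of the related and marker lists, the grey line is the median of all such genes (1.42) and the band spans their 10th to 90th percentiles. Cst7, Serpinb6b, Ctsw and Ctsd lie above the band, and Ctsc lies below it. The Serpinb6b point is the intronic region, and the region over its starts has a ratio of 1.73. The Ctsw point mixes its start region (1.98 alone) and its intronic region (2.54 alone).

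The wider families were open to very different extents. Of 13 other cathepsins and related lysosomal proteases, 11 were open in at least 3 libraries, against 54.9% of all protein-coding genes, and Ctsg and Ctsk had no start peak. The highest was Lgmn, the asparaginyl endopeptidase legumain, with 8.46, 9.83, 16.4 and 8.63, a mean of 10.8 ± 3.78. It was followed by Ctsl (4.29 ± 1.39), Ctsa (3.68 ± 0.616) and Ctso (3.65 ± 1.26), all below Ctsc. A list of 14 genes for sorting enzymes to lysosomes, other lysosomal proteins and transcription factors of lysosomal genes had 12 open in at least 3 libraries. The highest of these were M6pr, a mannose 6-phosphate receptor (8.97 ± 1.69), Tfeb, one of those transcription factors (8.33 ± 1.24), Psap (7.56 ± 1.57) and Lamp1 (6.69 ± 1.81).

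The inhibitor families and granule effectors can be read against the 54.9% of all protein-coding genes open in at least 3 libraries. Of 12 other cystatin and stefin genes 3 were open, Cst3 with 2.39 ± 0.639, Cstb with 2.30 ± 0.523, and Cst6 in 3 libraries with 0.572 ± 0.384, while 9 had no start peak in any library. Of 23 other clade B serpin genes in the annotation only Serpinb1b was open in at least 3 libraries, with 1.16, 0, 0.615 and 1.03. This count was 0 with the shorter peak lists, with the 500 bp window, where all 4 libraries had to hold a peak and without replicate 1, 3 or 4, and it was 4 where a peak in at least 1 library sufficed. Within this list 19 had no start peak in any library, among them the other Serpinb6 paralogs Serpinb6c, Serpinb6d and Serpinb6e. How reads shared between close copies were treated is not stated, so a missing peak at such copies is less certain than at other genes. Of the granule effectors 5 of 12 were open in at least 3 libraries, with Prf1, encoding the pore-forming perforin, at 6.14 ± 2.87, Nkg7 at 4.57 ± 2.13, Gzmb at 4.03 ± 3.06 and Srgn, the granule proteoglycan, at 2.80 ± 1.27. Gzma, Gzmc and Gzmm had a start peak in replicate 3 alone.

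For each of the 7 genes the closest pattern was sought among the 29 genes of these lists that were open in all 4 libraries, by the percentile of the start signal in each library, taking the largest of the 4 differences. Ctsd came closest to Nkg7, within 4.95 percentile points in every library, Ctsw to Ctse within 4.39 points and Serpinb9 to Ctsa within 4.03 points. Cst7 was nearest to Igf2r (6.28 points), Serpinb6b to Tfe3 (7.05 points) and then Gzmb (8.09 points), Serpinb6a to Ctsl (9.54 points) and Ctsc to Gnptab (9.75 points). The measure rests on 4 libraries and is given as a description.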

How the data were processed

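Open chromatin was measured by DNase-seq in 4 libraries of mouse NK cells, which the labels place in a single group. Per the deposited readmes, the authors made every file from the filtered alignments of 1 library to mm10, so nothing was pooled; no source at hand names the aligner, the callers of peaks and footprints, or their settings. For each peak the authors deposited a signal value, with no unit stated. The deposited FDR of the cut rate, a p-value-like measure, is listed only where it is below 0.05, and the deposited footprints carry a constant of 0.01.

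The longer of the 2 peak lists of each library was used. Peaks that touched or overlapped by 1 bp were merged, and gene and transcript starts came from GENCODE vM21, on the same assembly. Sequences and promoters came from RefSeq's GRCm38.p6; 6 of the 7 genes have a row in the promoter table, and all 7 rows were identical to the genome. Printed windows hold at most 300 bases, at most 30 of them annotated as untranslated. Scripts ran in Python 3.11.15 with numpy 2.4.6, pandas 2.3.3 and matplotlib 3.10.9. The merging of peaks, the search for the highest signal and the counts per locus were tested on simulated data, and the motif matching was not. Values are means and SDs over 4 libraries. No test between conditions was possible with 1 group, and none was run between genes; libraries far from the rest were marked by Dixon's criterion.

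The genes and the related and marker lists were chosen with earlier results of these data known. All 7 genes are named, with the region of highest signal at a start, their other recurrent start regions, up to 3 recurrent regions away from starts, and up to 4 genes of each related list by mean start signal among those open in all libraries. Other genes of the lists were named after their values were seen. Alternatives were the shorter peak list, a 500 bp window, the gene's 5' end alone, presence in all 4 or at least 1 library, other flanks, stricter FDR, other signal scales, stricter footprint and looser motif overlap, and leaving out each library.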

Additional observations from a re-analysis of the deposited data

Results flagged for a closer look

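In 46 sets of 4 library values (32 start or recurrent region signals and 14 counts of regions or footprints per locus), the highest or lowest library was checked for a wide gap to the rest (Dixon's criterion at the 95% level). The criterion was passed in 14 sets, 9 of signals and 5 of counts, with replicate 3 the highest in 11 of them. Chance passes about 1 in 20 sets of continuous values, and the sets are not independent because they share libraries. That rate does not apply to small counts or where a missing peak was entered as 0. In 2 sets, both at the Ctsc locus, the other 3 counts were equal, so any gap passes.

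Replicate 3 stood above the other libraries at the Cst7 start (3.89), the Serpinb6b start (7.14), the Ctsd regions 142353961 to 142354260 (4.91), 142379201 to 142379500 (4.64) and 142393281 to 142393480 (4.84), the Ctsw intronic region 5467081 to 5467543 (2.67) and the region 33001381 to 33001700 upstream of Serpinb9 (3.85). It was also apart in the number of regions with a peak at the Cst7 locus (10) and the Serpinb6b locus (10), and in the number of footprints in regions of the Cst7 locus (20) and the Ctsc locus (8, against 5 in each other library). Its NK marker sum was 54.3, against 19.4 to 21.4 elsewhere, and the part of this in the differences was not tested.

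Replicate 4 stood below the others in 3 sets. These were the Serpinb6a start (3.11), the region 150558661 to 150558900 upstream of Cst7 (0, no peak) and the number of regions at the Ctsc locus (1, against 2 in each other library). It had the fewest peaks, 36285, and whether that accounts for these values was not tested.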

How the results depend on the processing

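All 7 genes had a recurrent start peak under each alternative except the annotated 5' end alone, which dropped Serpinb9 (mean 0.687) and left 6. The 33 recurrent regions summed over the loci became 64 when a peak in at least 1 library was enough and 15 within gene bodies alone. Leaving out each library in turn, with a peak then required in all 3 remaining, gave 30 to 32 regions, 7 open genes each time, and 29 to 31 open genes in the related lists against 32. Under the 500 bp window the ratio of replicate 3 to the others at Serpinb6b was 1.73 in place of 2.57. That window and leaving out replicate 3 each swapped Serpinb6b and Serpinb9 in the order of mean start signal, leaving out replicate 1 swapped Ctsd and Serpinb6a, and the 5' end alone put Serpinb9 last. Both other signal scales and the shorter peak list kept the order. No paired analysis was possible because the labels give a single group. The signal has no stated unit, read depth is unknown here, and replicate 3 has the most peaks; how far its depth bears on regions seen in it alone was not tested. The annotated reference is C57BL/6J, while the mice also carry a CAST genome.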
